A study of Rattus norvegicus with 24 samples.

Results

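The genes described here copy DNA or open the way into S phase: 45 listed genes for origin licensing, helicase activation, DNA polymerases and primase, the sliding clamp and lagging strand, nucleotide supply, the cyclins and kinases of the G1/S transition, and the E2F, RB and CDK inhibitor proteins that gate it. A listed gene was taken from the array table through the platform annotation, and a gene with several probe sets was represented by the one that was brightest on average over the 24 arrays. Of the 45 genes, 42 had a named probe set, out of 14217 genes with a named probe set in all. Cdc6, Gins2 and Rrm2 had no named probe set in the annotation used here. Among the 42 genes, 29 had 1 probe set and 13 had several.

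Rat INS-1E cells, an insulin-secreting insulinoma line, were profiled on 24 single-colour Affymetrix arrays in 8 groups of 3. Cells without cytokines were compared with cells given IL-1beta at 10 ng/ml, IFN-gamma at 50 ng/ml and TNF-alpha at 25 ng/ml together, a mixture that stands in for inflammation of the islet. Both kinds of culture also received either DMSO, the vehicle, or 10 uM of BRD0476, a small molecule known for reducing cytokine-induced death of beta cells, and RNA was taken at 6 or 12 h. The question was how the cytokines changed expression and how far BRD0476 altered that change. The groups are called untreated, BRD0476 alone, cytokines, and cytokines with BRD0476, and those without BRD0476 in their name held DMSO. All groups are 1 cell line, although the labels give pancreatic islets as the tissue. The labels do not say that the 3 arrays of a group came from separate cultures, so the p-values measure the spread between these arrays, which may be technical.

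Eukaryotic replication origins are licensed in G1, when the origin recognition complex (ORC), Cdc6 and Cdt1 load the ring-shaped MCM helicase onto DNA. At the G1/S transition, cyclin D with Cdk4 or Cdk6 and cyclin E with Cdk2 phosphorylate RB, which frees E2F factors to transcribe cyclin E and most of the replication machinery, and CDK inhibitors such as p18 (Cdkn2c) and p27 (Cdkn1b) hold those kinases back. S-phase kinases then turn the loaded MCM rings into active helicases with Cdc45 and the GINS complex, and polymerases follow with the clamp PCNA. Adult beta cells divide rarely, whereas an insulinoma line such as INS-1E cycles in culture and expresses this machinery.

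Promoters of 4 genes are shown because E2F words stand in them and the genes' levels parted from each other with cytokines: Mcm7 and Gins1, which fell at both times, Tyms, which was called lower at 12 h, and Mcm3, which rose. Each window runs from 250 bases before to 50 after the transcription start in RefSeq (rat build GRCr8), and the capitals mark E2F words, here TTTCCCGC, TTTCGCGC, TTTGCCGC and TTTGGCGC on either strand. The windows lie at chr12:22163129-22163428 (minus strand, Mcm7), chr3:160184670-160184969 (plus strand, Gins1), chr9:120776034-120776333 (minus strand, Tyms) and chr9:30733697-30733996 (minus strand, Mcm3), each around the annotated start of its gene.
Mcm7: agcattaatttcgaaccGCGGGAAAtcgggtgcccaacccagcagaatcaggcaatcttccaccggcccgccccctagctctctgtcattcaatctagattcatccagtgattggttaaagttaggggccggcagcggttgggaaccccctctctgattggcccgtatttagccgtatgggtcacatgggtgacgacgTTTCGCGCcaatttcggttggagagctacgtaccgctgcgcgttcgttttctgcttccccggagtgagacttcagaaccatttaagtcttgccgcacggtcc
Gins1: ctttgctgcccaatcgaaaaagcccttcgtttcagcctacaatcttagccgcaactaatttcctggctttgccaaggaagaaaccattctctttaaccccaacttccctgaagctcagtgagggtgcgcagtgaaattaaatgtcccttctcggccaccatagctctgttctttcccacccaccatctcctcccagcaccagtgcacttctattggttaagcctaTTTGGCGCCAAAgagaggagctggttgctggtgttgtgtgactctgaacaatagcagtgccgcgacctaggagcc
Tyms: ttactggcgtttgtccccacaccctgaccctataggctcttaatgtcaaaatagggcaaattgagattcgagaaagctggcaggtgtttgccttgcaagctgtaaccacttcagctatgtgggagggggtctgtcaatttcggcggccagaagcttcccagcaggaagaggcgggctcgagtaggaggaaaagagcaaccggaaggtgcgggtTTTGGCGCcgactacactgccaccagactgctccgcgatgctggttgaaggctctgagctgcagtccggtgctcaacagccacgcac
Mcm3: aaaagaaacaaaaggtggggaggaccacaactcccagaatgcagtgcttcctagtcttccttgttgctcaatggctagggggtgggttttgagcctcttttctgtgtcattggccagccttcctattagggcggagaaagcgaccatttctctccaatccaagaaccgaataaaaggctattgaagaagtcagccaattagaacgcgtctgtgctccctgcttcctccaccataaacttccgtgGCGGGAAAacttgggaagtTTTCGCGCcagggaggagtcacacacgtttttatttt
Mcm7 and Mcm3 each held 2 separate words. In Gins1 the words of both strands overlapped in 1 stretch, and Tyms held 1 word.

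A window was found for 36 of the 45 genes, and 14 of them (38.9%) held an E2F word, against 716 of all 33469 windows of 300 bases (2.14%). The 39 windows of other replication genes gave 43.6% and the 30 windows of mitosis genes 3.33%. The cell-cycle homology region, a word of mitotic promoters searched as TTTGAA or TTCGAA on both strands, stood in 11.1% of the windows of the genes described here, in 19.7% of all windows and in 73.3% of those of mitosis genes. CCAAT, on either strand, stood in 61.1% of these windows against 37.5% of all. The median GC content of the windows was 61.0% against 51.7% for all windows. These are matches of letters and do not show binding.

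Beta-cell genes were bright in untreated cells. In untreated cells at 6 h Ins1 stood at 14.53 ± 0.06 (SD, n = 3) on the log2 intensity scale and Slc2a2, the glucose transporter of beta cells, at 13.23 ± 0.10. The median over the measured markers of leukocytes, fibroblasts, endothelium and exocrine or ductal cells stayed between 3.47 and 4.34 in every array. These medians were below the lower quartile of all genes, 4.46. Single markers stood above it by their means over all arrays: Pdgfra (6.03), Kdr (5.60), Pdgfrb (5.135), Lyz2 (4.72), Cd68 (4.61) and Vwf (4.57). At 6 h Pdgfra read 6.50, 6.82 and 6.43 untreated and 5.04, 4.82 and 5.01 with cytokines. Kdr read 5.79, 6.20 and 5.52 untreated and 4.41, 3.96 and 3.88 with cytokines. With cytokines and BRD0476 they read 5.92, 6.21 and 6.01, and 5.88, 5.85 and 5.69. Of the 25 markers in these lists, 2 were called lower and 3 higher with cytokines at 6 h. Both counts are under the shares of all genes, 27.4% and 24.3%. The beta-cell markers themselves moved with the treatments: 6 of 8 were called lower with cytokines at 6 h and 4 at 12 h. None was higher at either time. Of all genes 27.4% were lower and 24.3% higher at 6 h, and 29.9% and 16% at 12 h. The beta-cell transcription factor genes Nkx6-1, Mafa and Pdx1 fell by 1.52 ± 0.11, 0.69 ± 0.07 and 0.56 ± 0.08 (SE) at 6 h, and Nkx6-1 and Mafa by 1.76 ± 0.11 and 0.98 ± 0.07 at 12 h, while Ins1 was called at neither time. With cytokines and BRD0476, 6 of the 8 were higher than with cytokines alone at 6 h and 1 lower, and 4 were higher at 12 h. The shares of all genes were 24.7% higher and 19.4% lower at 6 h, and 16.3% higher at 12 h. The alpha-cell hormone gene Gcg was present at 10.29 ± 0.14 (SD) in untreated cells at 6 h. The other measured markers of islet endocrine cells, Irx2, Sst, Ppy, Hhex and Ghrl, had means over all arrays of 3.59 to 4.19. These were below the lower quartile of all genes. Gcg fell with cytokines by 0.96 ± 0.10 (SE) at 6 h and 0.42 ± 0.10 at 12 h. It was higher with cytokines and BRD0476 than with cytokines alone by 0.84 ± 0.10 at 6 h. These markers thus moved alongside many of the genes described here, and their part in the differences below was not tested. Irf1, a first-line IFN-gamma target, rose by 4.74 ± 0.11 (SE) at 6 h and by 5.08 ± 0.11 at 12 h with cytokines. Array 1 of BRD0476 alone at 6 h stood apart in cytokine-response genes. It read 7.16 for the chemokine gene Cxcl10, where arrays 2 and 3 read 3.90 and 4.33, and 5.02 for the adhesion gene Icam1 against 4.17 and 4.27. Results that use it are given with and without it below. Arrays of a group correlated with r between 0.992 and 0.998 over all genes. Depth has no counterpart on arrays, and the number of arrays sets the precision.

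With cytokines, most replication and G1/S genes fell, at both times. At 6 h 24 of the 42 genes were called lower and 5 higher, where a gene is called at an adjusted p under 0.05 from limma over all genes, and the median log2 difference was -0.26. Over all genes 27.4% were called lower and 24.3% higher at 6 h. At 12 h 32 of the 42 were called lower and 3 higher, with a median of -0.31, against 29.9% of all genes lower and 16% higher. Of the genes called lower, 22 were called lower at both times, which is 91.7% of those at 6 h and 68.8% of those at 12 h. The same overlap was not counted over all genes, so these shares have no background. Same-numbered cytokine arrays of both times also deviated together, so the times are not independent. The all-gene medians were 0.004 at 6 h and -0.044 at 12 h. The falls were mostly moderate, and a drop to 1 copy in 2 or further was seen for Cdkn2c, Cdc45 and Ccne2 alone at 6 h. In bulk RNA, fewer cells in S phase and less RNA of these genes per cell cannot be told apart.

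**Figure D1:**
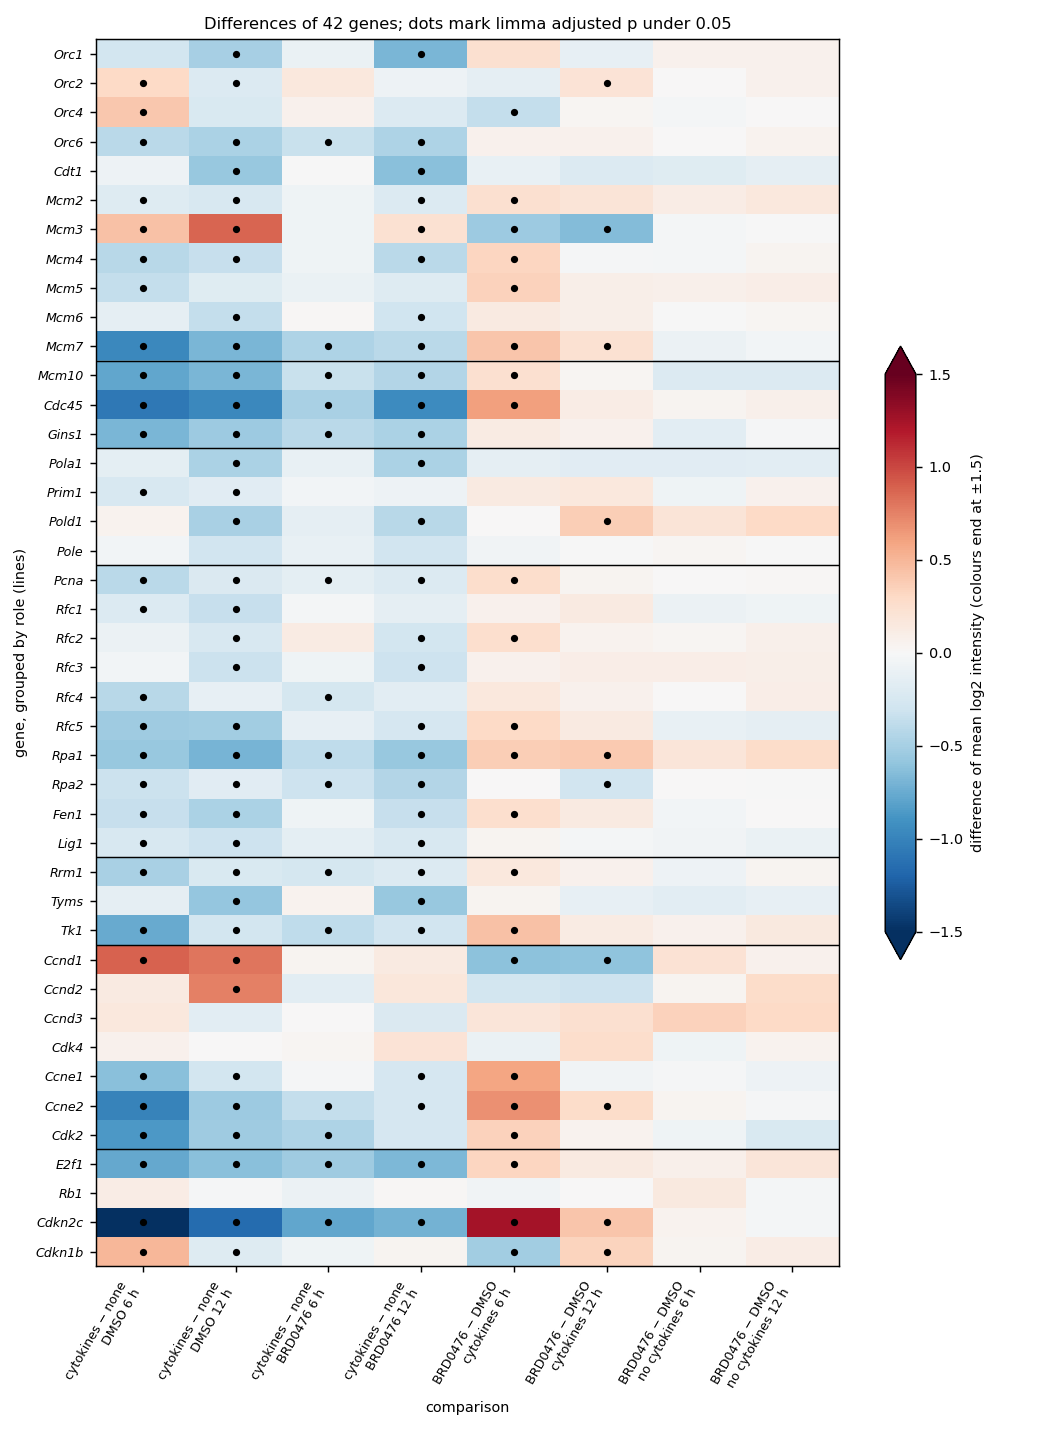
Differences of mean log2 intensity for the 42 genes (rows, by role) in the comparisons named under each column, with blue for lower and red for higher and a dot where the limma adjusted p was under 0.05. The colours end at ±1.5, beyond which only Cdkn2c with cytokines at 6 h (-1.98) lies; the cytokine columns are mostly blue, with Mcm3 and Ccnd1 red.

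Among the 11 measured licensing genes, 5 were called lower and 3 higher at 6 h, and 8 lower and 1 higher at 12 h. Of all genes 27.4% were lower and 24.3% higher at 6 h, and 29.9% and 16% at 12 h. The 3 licensing genes higher at 6 h are thus near the background. Mcm7, a subunit of the MCM ring, had the largest fall of the 11. Its untreated arrays read 11.16, 11.26 and 11.22 at 6 h and its cytokine arrays 10.31, 10.15 and 10.28, on the log2 scale. At 12 h the untreated arrays read 10.90, 10.92 and 10.96 and the cytokine arrays 10.25, 10.27 and 10.22. The groups were well apart at both times, and the cytokine arrays stayed at one level while the untreated arrays were lower at 12 h than at 6 h. Mcm7 fell by 0.97 ± 0.06 (SE, adjusted p = 7.19e-12), 1.96-fold, at 6 h and by 0.68 ± 0.06 (adjusted p = 3e-09) at 12 h.

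Mcm3, a subunit of the same ring, went the other way. Its untreated arrays read 9.28, 9.21 and 9.35 at 6 h and the cytokine arrays 9.82, 9.64 and 9.70. At 12 h the values were 9.09, 9.11 and 9.07 without and 10.07, 10.07 and 9.74 with cytokines. All cytokine arrays lay above all untreated ones. Mcm3 rose by 0.44 ± 0.08 (adjusted p = 0.000153) at 6 h and by 0.87 ± 0.08 (adjusted p = 2.73e-08), 1.83-fold, at 12 h. The other MCM genes fell or were not called: Mcm4 fell by 0.42 and 0.35 at 6 and 12 h, Mcm5 by 0.36 at 6 h and Mcm6 by 0.36 at 12 h. Mcm2 fell by 0.19 at 6 h, the one called gene at 6 h whose groups overlapped, and by 0.24 at 12 h. Its calls ended when cytokine array 3 or untreated array 3 was left out at either time, and at 6 h also without cytokine array 2 or untreated array 1, with values between -0.15 and -0.20. Mcm3 is measured by 1 probe set.

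The genes that recruit the ring differed in time. Cdt1, which escorts MCM to ORC, read 9.09, 9.06 and 9.0 untreated and 8.84, 8.84 and 9.24 with cytokines at 6 h. Its 12 h arrays read 8.74, 8.79 and 8.74 untreated and 8.10, 8.18 and 8.28 with cytokines. The groups overlapped at 6 h and were apart at 12 h, where Cdt1 fell by 0.57 ± 0.09 (adjusted p = 2.3e-05), and the fall differed between the times by -0.49 ± 0.13 (adjusted p = 0.00592). Among ORC subunits, Orc6 fell by 0.40 ± 0.08 and 0.47 ± 0.08 at 6 and 12 h, and all 3 of its probe sets fell. Orc1, at a dim signal, fell by 0.50 ± 0.15 at 12 h (adjusted p = 0.00767). Orc2 read 8.60, 8.58 and 8.56 untreated and 8.91, 8.86 and 8.88 with cytokines at 6 h, then 8.44, 8.53 and 8.55 against 8.33, 8.30 and 8.28 at 12 h. It thus rose by 0.30 at 6 h and fell by 0.21 at 12 h. The later call ended without cytokine array 2 or 3 or untreated array 2 or 3, with values of -0.19 to -0.20 and adjusted p of 0.0505 to 0.0763, and also when arrays were centred on their medians (-0.18). Orc4 was called higher by 0.40 at 6 h on its brighter probe set, while its other probe set fell by 0.28 (adjusted p = 0.00507), so its direction is uncertain.

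**Figure D2:**
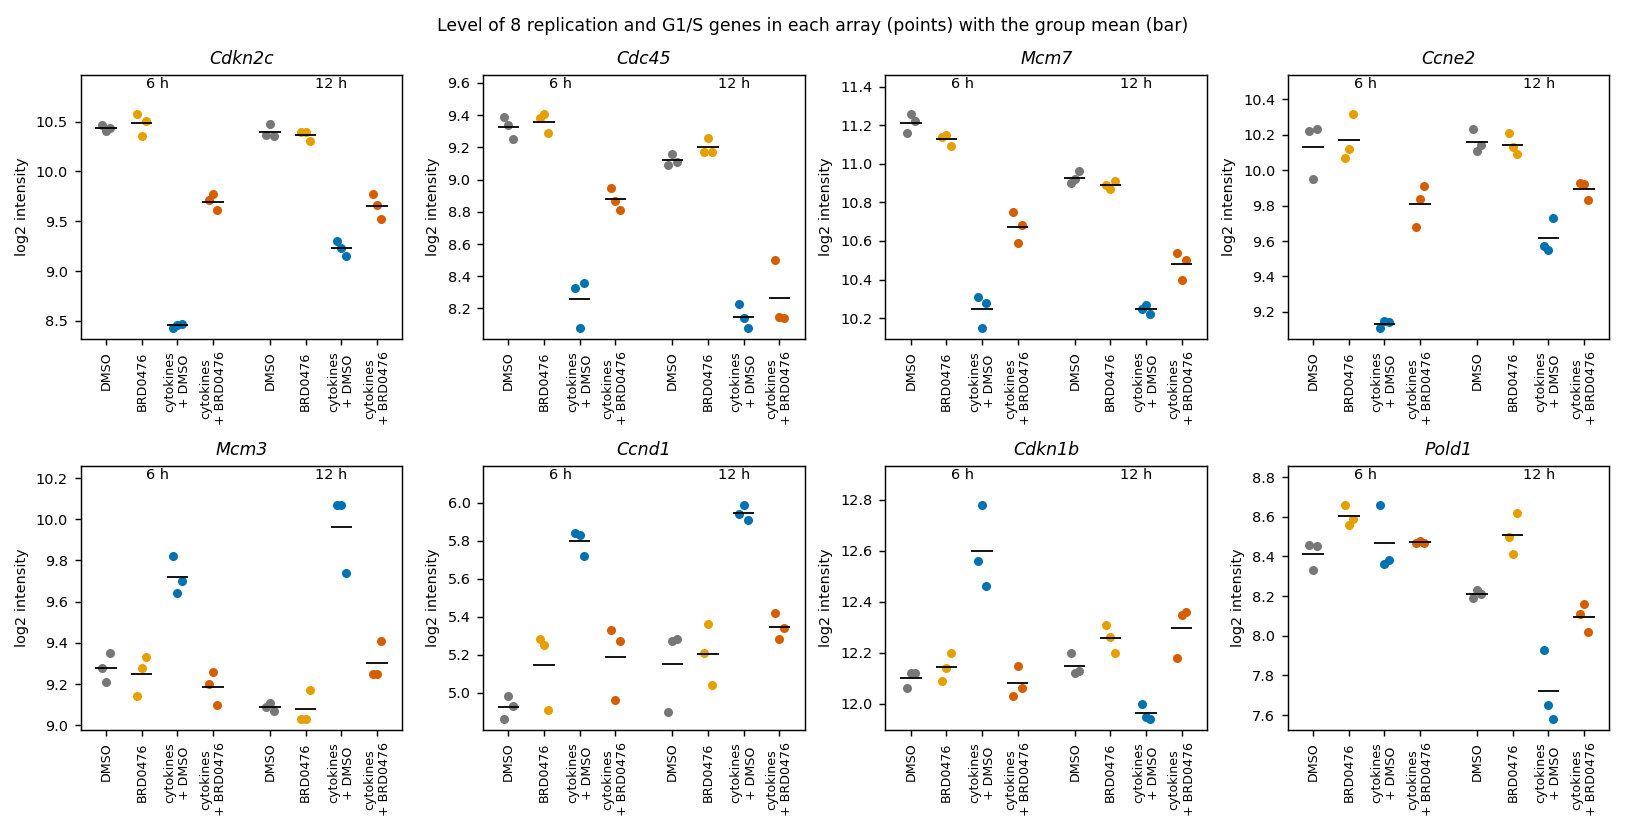
Log2 intensity of 8 genes in each array (points, 3 per group) with the group mean (bar), for the 8 groups at 6 h (left 4) and 12 h (right 4) in each panel. Among the 6 h groups, Cdkn2c, Cdc45, Mcm7 and Ccne2 lie lowest and Mcm3 and Ccnd1 highest with cytokines in DMSO, and Cdkn1b is high with cytokines at 6 h and low at 12 h.

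All 3 measured genes of helicase activation fell at both times, with a median of -0.78 at 6 h and -0.68 at 12 h. Of all genes 27.4% were called lower at 6 h and 29.9% at 12 h. Cdc45, the helicase cofactor that marks fired origins, read 9.39, 9.34 and 9.25 untreated and 8.33, 8.08 and 8.36 with cytokines at 6 h. The 12 h arrays read 9.09, 9.16 and 9.11 untreated and 8.23, 8.14 and 8.08 with cytokines. Its groups were about 1 log2 unit apart each time: it fell by 1.07 ± 0.09 (adjusted p = 1.19e-09), 2.10-fold, and by 0.97 ± 0.09 (adjusted p = 8.41e-09). A further 2 Cdc45 probe sets fell by 1.20 and 1.05 at 6 h, and the dimmest, at a mean of 4.47, was flat (-0.10, adjusted p = 0.561).

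Mcm10, which links the helicase to primase, read 7.98, 8.29 and 8.02 untreated and 7.27, 7.26 and 7.44 with cytokines at 6 h. At 12 h these were 7.73, 7.80 and 7.91 against 7.15, 7.04 and 7.20. It fell by 0.78 ± 0.09 and 0.68 ± 0.09, with no overlap of groups. Gins1, a GINS subunit, read 9.26, 9.31 and 9.27 untreated and 8.49, 8.53 and 8.78 with cytokines at 6 h, and 9.0, 8.98 and 9.12 against 8.51, 8.39 and 8.55 at 12 h. It fell by 0.68 ± 0.07 and 0.55 ± 0.07.

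Of the 4 genes of the replicative polymerases and primase, 1 was called lower at 6 h and 3 at 12 h. The shares of all genes were 27.4% and 29.9%, so the 1 at 6 h is near the background. Pold1, the catalytic subunit of the lagging-strand polymerase delta, read 8.46, 8.33 and 8.45 untreated and 8.66, 8.36 and 8.38 with cytokines at 6 h. At 12 h it read 8.19, 8.23 and 8.21 untreated and 7.93, 7.65 and 7.58 with cytokines. The groups overlapped at 6 h (0.05 ± 0.09, adjusted p = 0.668) and were apart at 12 h, a fall of 0.49 ± 0.09 (adjusted p = 7.72e-05). The change between the times was -0.54 ± 0.12 (adjusted p = 0.00189).

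Pola1, the polymerase partner of primase, read 9.58, 9.73 and 9.62 against 9.54, 9.49 and 9.46 at 6 h and 9.53, 9.56 and 9.52 against 9.13, 8.89 and 9.18 at 12 h. It fell by 0.47 ± 0.07 at 12 h, and the change between the times was -0.32 ± 0.10 (adjusted p = 0.0167), or -0.24 (adjusted p = 0.0532) without cytokine array 2 at 12 h. Pole, of the leading-strand polymerase epsilon, read 6.07, 6.26 and 6.35 untreated and 5.99, 6.15 and 5.69 with cytokines at 12 h, overlapping groups with a difference of -0.29 ± 0.12 (adjusted p = 0.0579). Prim1, the small primase subunit, fell by 0.24 at 6 h and by 0.17 at 12 h. The later call ended without cytokine array 1 or 2 or untreated array 1 or 2 (-0.15 to -0.17) and with centred arrays (-0.14, adjusted p = 0.0611).

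Among the 10 genes of the clamp, its loader, the single-strand binding protein RPA and lagging-strand repair, 8 were called lower at 6 h and 9 at 12 h. None was called higher at either time (0 also at an unadjusted p under 0.05). Of all genes 27.4% were lower and 24.3% higher at 6 h, and 29.9% and 16% at 12 h. Pcna, the sliding clamp, fell by 0.41 ± 0.05 at 6 h (adjusted p = 6.98e-07) and by 0.22 ± 0.05 at 12 h. Rpa1, the large RPA subunit, read 8.90, 8.97 and 9.01 untreated and 8.62, 8.39 and 8.16 with cytokines at 6 h. Later, at 12 h, it read 8.84, 8.95 and 8.97 against 8.29, 8.17 and 8.21. The cytokine arrays were lower throughout, by 0.57 ± 0.09 and 0.70 ± 0.09.

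Rfc5, a clamp-loader subunit, read 11.19, 11.12 and 11.14 untreated and 10.61, 10.43 and 10.81 with cytokines at 6 h, and 10.85, 10.86 and 10.93 against 10.35, 10.20 and 10.53 at 12 h. It fell by 0.53 ± 0.08 and 0.52 ± 0.08, and its second probe set by 0.32 and 0.27. Fen1, the flap nuclease that trims Okazaki fragments, read 10.64, 10.53 and 10.49 against 10.25, 10.06 and 10.29 at 6 h and 10.40, 10.42 and 10.36 against 9.94, 9.94 and 9.85 at 12 h. Its falls were 0.35 ± 0.06 and 0.48 ± 0.06. The other loader subunits fell less: Rfc4 by 0.42 at 6 h, Rfc2 by 0.24 and Rfc3 by 0.32 at 12 h. Rpa2 fell by 0.32 at 6 h and by 0.17 at 12 h, where the call ended without cytokine array 2 (-0.12, adjusted p = 0.151) or untreated array 2 (-0.15) and with centred arrays (-0.13). Rfc1 fell by 0.20 at 6 h and 0.35 at 12 h on its brightest probe set, but the mean of its 3 probe sets gave 0.02 (adjusted p = 0.914) at 6 h. Without cytokine array 1, untreated array 1 or untreated array 3 its 6 h value was -0.16 to -0.18 and no longer called. Lig1, the ligase that seals Okazaki fragments, fell by 0.24 and 0.31, and the mean of its 2 probe sets gave -0.05 (adjusted p = 0.717) and -0.15.

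Among the genes of nucleotide supply, Tk1 and Rrm1 fell more at 6 h than at 12 h, and Tyms was called lower only at 12 h. Tk1, the thymidine kinase of S phase, read 10.64, 10.60 and 10.60 untreated and 9.87, 9.84 and 9.87 with cytokines at 6 h. Its 12 h arrays read 10.37, 10.30 and 10.37 against 9.99, 10.21 and 10.04. The gap narrowed from both sides: Tk1 fell by 0.76 ± 0.06 (adjusted p = 2.98e-10) at 6 h and by 0.27 ± 0.06 (adjusted p = 0.000548) at 12 h, a change of 0.49 ± 0.08 (adjusted p = 7.56e-05). All 3 Tk1 probe sets fell at 6 h.

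Rrm1, the large ribonucleotide reductase subunit, read 10.94, 11.10 and 11.04 against 10.60, 10.45 and 10.54 at 6 h and 10.74, 10.77 and 10.79 against 10.51, 10.57 and 10.54 at 12 h, falls of 0.49 ± 0.06 and 0.23 ± 0.06. Tyms, thymidylate synthase, read 7.39, 7.79 and 7.72 against 7.33, 7.40 and 7.74 at 6 h, overlapping groups with a difference of -0.14. At 12 h it read 7.89, 7.41 and 7.16 against 6.81, 6.88 and 7.03. It fell by 0.58 ± 0.16 there (adjusted p = 0.00652), and without untreated array 1, the highest, the difference was -0.38 (adjusted p = 0.0647). The change between the times for Tyms, -0.43 ± 0.23, was not called (adjusted p = 0.188).

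Of the 7 G1/S cyclins and kinases, 3 were called lower at each time, Ccne1, Ccne2 and Cdk2. A further 1 was higher at 6 h and 2 at 12 h, all of them cyclin D genes. The shares of all genes were 27.4% lower and 24.3% higher at 6 h, and 29.9% and 16% at 12 h. The 1 higher at 6 h is thus not above the background. Ccne2, a cyclin E, read 10.22, 9.95 and 10.23 untreated and 9.11, 9.15 and 9.14 with cytokines at 6 h. At 12 h it read 10.23, 10.11 and 10.14 against 9.57, 9.55 and 9.73. The cytokine arrays were at a common low level at 6 h and part of the way back at 12 h. Ccne2 fell by 1.0 ± 0.08 (adjusted p = 1.66e-09), 2.0-fold, at 6 h and by 0.54 ± 0.08 at 12 h, where its dimmer probe set showed no difference (0.00, adjusted p = 0.985).

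Ccne1 read 9.25, 9.15 and 9.20 against 8.51, 8.47 and 8.73 at 6 h and 9.13, 9.15 and 9.09 against 8.74, 8.80 and 8.99 at 12 h, falls of 0.63 ± 0.07 and 0.28 ± 0.07. Cdk2, the kinase that cyclin E activates, read 7.77, 7.94 and 7.69 against 7.09, 7.06 and 6.68 at 6 h and 7.73, 7.80 and 7.82 against 7.35, 7.41 and 6.99 at 12 h. It fell by 0.86 ± 0.11 (adjusted p = 6.79e-07) and 0.53 ± 0.11, and cytokine array 3 was the lowest of its group both times.

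Ccnd1, cyclin D1, was dim but clearly raised. It read 4.86, 4.98 and 4.93 untreated and 5.84, 5.83 and 5.72 with cytokines at 6 h, then 4.90, 5.27 and 5.28 against 5.94, 5.99 and 5.91 at 12 h. It rose by 0.88 ± 0.11 (adjusted p = 1.1e-06) and 0.80 ± 0.11 (adjusted p = 5.24e-06), and its 3 probe sets rose at both times. Ccnd2, a cyclin D at a bright signal, read 11.88, 12.01 and 12.00 against 11.88, 12.04 and 12.40 at 6 h. At 12 h its untreated arrays read 11.61, 11.06 and 11.15 and its cytokine arrays 11.79, 11.89 and 12.40. It rose by 0.76 ± 0.22 at 12 h (adjusted p = 0.00654), where the untreated arrays were low, and the change between the times was not called (0.61 ± 0.31, adjusted p = 0.152). Ccnd3 and the cyclin D kinase Cdk4 were called at neither time in DMSO, with differences of 0.16 and -0.16 for Ccnd3 and 0.07 and 0.00 for Cdk4.

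The largest fall of all 42 genes was that of Cdkn2c, the CDK4/6 inhibitor p18. Its untreated arrays read 10.46, 10.40 and 10.43 at 6 h and its cytokine arrays 8.43, 8.46 and 8.47. At 12 h the untreated arrays read 10.36, 10.47 and 10.35 and the cytokine arrays 9.30, 9.23 and 9.15. The arrays of each group were tight and the gap at 12 h was smaller than at 6 h. Cdkn2c fell by 1.98 ± 0.07 (adjusted p = 1.62e-15), 3.94-fold, and then by 1.16 ± 0.07 (adjusted p = 1.34e-11), 2.24-fold. A second, dim probe set did not pass the test (-0.14, adjusted p = 0.623 at 6 h).

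E2f1, the activating E2F, read 9.05, 8.95 and 8.95 untreated and 8.20, 8.23 and 8.23 with cytokines at 6 h, and 8.73, 8.65 and 8.72 against 8.07, 8.16 and 7.97 at 12 h. It fell by 0.77 ± 0.06 (adjusted p = 7.22e-10) and 0.63 ± 0.06. Cdkn1b, the CDK2 inhibitor p27, rose at 6 h and had a small fall at 12 h that was sensitive to single arrays. It read 12.06, 12.12 and 12.12 untreated and 12.56, 12.78 and 12.46 with cytokines at 6 h, then 12.20, 12.12 and 12.13 against 12.00, 11.95 and 11.94 at 12 h. It rose by 0.50 ± 0.07 (adjusted p = 5.45e-06) and then fell by 0.19 ± 0.07 (adjusted p = 0.0428). Leaving out any of the 6 arrays ended the 12 h call, with values of -0.16 to -0.21, as did centring (-0.15). Rb1, the dimmest of the 42 genes with a mean of 3.10, was called at neither time (0.11 and -0.02).

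The cytokine difference itself was compared between 12 h and 6 h. Of the 42 genes 7 shifted downward and 8 upward, with a median of -0.05, against 16.9% and 11.8% of all genes, so the downward count is at the background. Same-numbered cytokine arrays of the times deviated together (r of 0.42, 0.40 and 0.72), and with the replicate number as a block within these arrays 9 shifted downward and 10 upward: all 15 calls held, and Ccnd3 (-0.32), Mcm6 (-0.23), Cdk2 (0.33) and Pcna (0.19) were added. The downward shifts were those of Orc2, Orc4, Cdt1, Pola1, Pold1, Rfc3 and Cdkn1b, and the upward ones those of Mcm3, Mcm7, Rfc4, Rrm1, Tk1, Ccne1, Ccne2 and Cdkn2c. Apart from Mcm3, whose rise grew, the upward shifts were falls that were smaller at 12 h. Cdkn2c had the largest upward shift (0.81 ± 0.10, adjusted p = 2.53e-06) and Cdkn1b the largest downward shift (-0.68 ± 0.10, adjusted p = 3.03e-05). The calls of Rfc3, Rfc4 and Rrm1 ended when single arrays were left out: Rfc3 without 9 of the 12 arrays in turn (-0.22 to -0.29), Rfc4 without 8 (0.22 to 0.32) and Rrm1 without 4 (0.23 to 0.25).

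The untreated level also moved with time. From 6 to 12 h, untreated cells had 4 of 42 genes lower (Mcm7 by 0.29, Rrm1 by 0.25, Tk1 by 0.27 and E2f1 by 0.28) and 0 higher (1 at an unadjusted p under 0.05), with a median of -0.14, against 1.21% and 0.464% of all genes. That count ranged from 1 to 4 with single arrays left out, was 0 in a fit of the 6 arrays alone and 18 with array weights. The lowest count, 1, came without untreated array 2 at 12 h, where E2f1 (-0.26), Rrm1 (-0.26) and Tk1 (-0.24) lost the call, and Mcm7 lost it without untreated array 1 at 12 h (-0.27). Calls over time in cells with cytokines were 14 lower and 7 higher, with a median of -0.12, against 23.1% and 18.4% of all genes. The block within these arrays gave 16 lower, with Mcm2 (-0.17) and E2f1 (-0.15) added, and 7 higher. Cdt1 had the largest fall over time there (0.79 ± 0.09) and Cdkn2c the largest rise (0.78 ± 0.07).

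**Figure D3:**
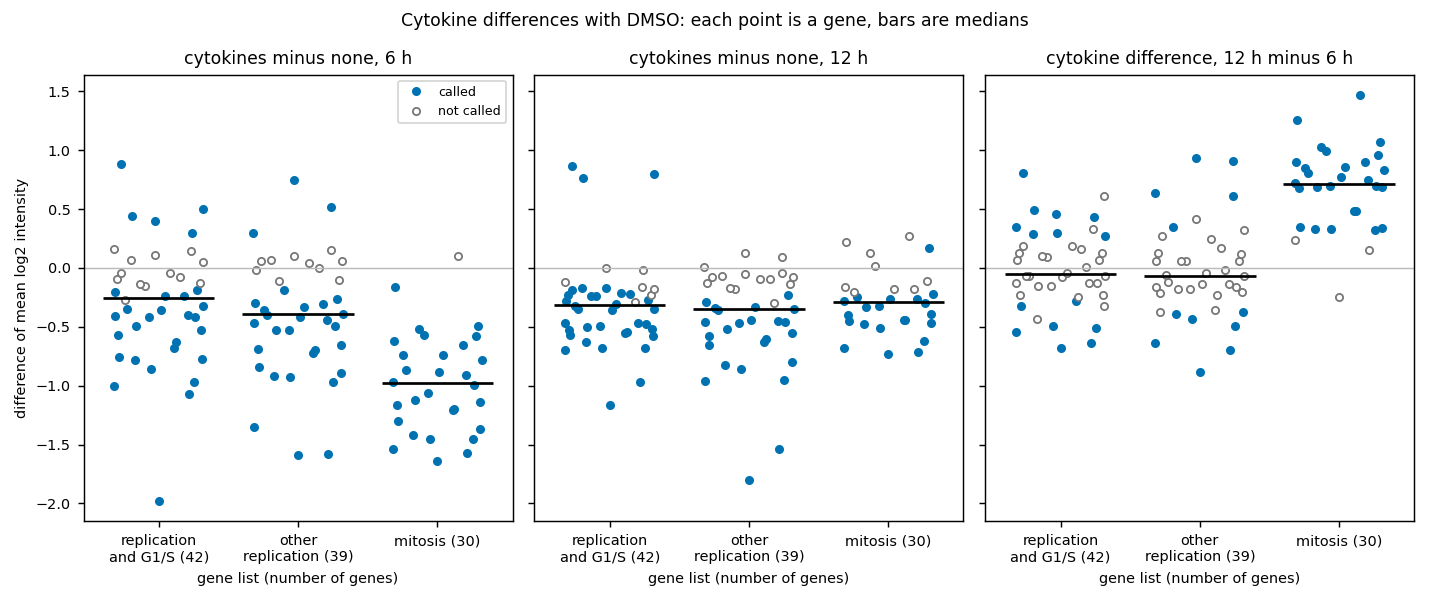
Cytokine differences in DMSO (log2) at 6 h, at 12 h and the difference between the times, each point a gene and each bar a median, for the 42 replication and G1/S genes, 39 other replication genes and 30 mitosis genes. The mitosis genes have a median of -0.98 at 6 h and -0.29 at 12 h, while the medians of the 42 genes are -0.26 and -0.31.

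In cells with cytokines, many of these genes were higher with BRD0476 at 6 h, while at 12 h the counts were near the shares of all genes. At 6 h 18 of the 42 genes were called higher with cytokines and BRD0476 than with cytokines and DMSO, and 4 lower, with a median of 0.15, against 24.7% and 19.4% of all genes. The 4 lower genes were Orc4, Mcm3, Ccnd1 and Cdkn1b, all among the 5 that rose with cytokines, Orc4 only on its brighter probe set. These comparisons share the cytokine DMSO arrays with the cytokine comparison, so the opposite signs are not independent. At 12 h 7 were higher and 3 lower, with a median of 0.06, against 16.3% and 10.6% of all genes. The 7 were Orc2, Mcm7, Pold1, Rpa1, Ccne2, Cdkn2c and Cdkn1b, and the 3 were Mcm3, Rpa2 and Ccnd1. The 18 were Mcm2, Mcm4, Mcm5, Mcm7, Mcm10, Cdc45, Pcna, Rfc2, Rfc5, Rpa1, Fen1, Rrm1, Tk1, Ccne1, Ccne2, Cdk2, E2f1 and Cdkn2c. Of these, Mcm10 (0.20 to 0.23 without 4 arrays in turn), Mcm2 (0.20 without cytokine array 3), Rfc2 (0.17 and 0.21) and Rrm1 (0.12 to 0.16) lost the call without single arrays, as did Orc2 at 12 h without 5 of 6 arrays in turn (0.13 to 0.21). The count of 7 was 4 with the mean of each gene's probe sets and 3 in a fit of only the arrays compared.

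Cdkn2c had the largest difference at 6 h, and Mcm3 at 12 h. With cytokines and BRD0476, Cdkn2c read 9.71, 9.77 and 9.61 at 6 h, between the cytokine arrays near 8.45 and the untreated arrays near 10.43. At 12 h it read 9.77, 9.66 and 9.52. It was higher than with cytokines alone by 1.25 ± 0.07 (adjusted p = 9.82e-12), 2.37-fold, at 6 h and by 0.42 ± 0.07 (adjusted p = 9.15e-05) at 12 h. Cdc45 read 8.95, 8.87 and 8.81 with both at 6 h, higher by 0.62 ± 0.09 (adjusted p = 5.21e-06). At 12 h it read 8.50, 8.15 and 8.14, with 0.11 ± 0.09 (adjusted p = 0.392). The change of the BRD0476 difference between the times was -0.51 ± 0.12 for Cdc45 (adjusted p = 0.00427) and -0.83 ± 0.10 for Cdkn2c (adjusted p = 3.78e-06).

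Both cyclin E genes were higher with BRD0476 at 6 h. Ccne1 read 9.19, 9.21 and 9.09 with cytokines and BRD0476 at 6 h, overlapping its untreated arrays, and 8.88, 8.73 and 8.78 at 12 h. It was higher by 0.59 ± 0.07 (adjusted p = 1.01e-06) at 6 h and not at 12 h (-0.05 ± 0.07, adjusted p = 0.725), and that change of -0.64 ± 0.10 was called (adjusted p = 0.000113). Ccne2 read 9.68, 9.84 and 9.91 at 6 h, higher by 0.68 ± 0.08, and 9.93, 9.92 and 9.83 at 12 h, higher by 0.27 ± 0.08. The 12 h call of Ccne2 ended without array 1 or 2 of either group (0.24 to 0.26). Mcm7 read 10.75, 10.59 and 10.68 at 6 h and 10.54, 10.40 and 10.50 at 12 h, higher by 0.42 ± 0.06 and 0.23 ± 0.06. Cdk2 was higher by 0.34 at 6 h, and by 0.21 (adjusted p = 0.111) without cytokine array 3.

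Mcm3 and Ccnd1, which the cytokines raised, were lower with BRD0476 than with cytokines alone at both times. Mcm3 read 9.20, 9.26 and 9.10 with cytokines and BRD0476 at 6 h and 9.25, 9.25 and 9.41 at 12 h, lower than with cytokines alone by 0.54 ± 0.08 and 0.65 ± 0.08 (adjusted p = 2.33e-05 and 4.23e-06). Ccnd1 read 5.33, 4.96 and 5.27 at 6 h and 5.42, 5.28 and 5.34 at 12 h, lower by 0.61 ± 0.11 and 0.60 ± 0.11. Cdkn1b read 12.03, 12.15 and 12.06 at 6 h and 12.18, 12.35 and 12.36 at 12 h. It was lower by 0.52 ± 0.07 at 6 h and higher by 0.33 ± 0.07 at 12 h, a change of 0.85 ± 0.10 (adjusted p = 3.77e-06). In all, the BRD0476 difference with cytokines was more negative at 12 h than at 6 h for 8 genes and more positive for 3. The shares of all genes were 13.2% and 11.9%, so the positive count is under the background. The 8 were Mcm4, Cdc45, Pcna, Rpa2, Tk1, Ccne1, Ccne2 and Cdkn2c, and the 3 were Orc2, Pold1 and Cdkn1b. With the replicate number as a block within the cytokine DMSO arrays, the positive count was 5, with Cdk4 (0.37) and Orc4 (0.39) added, and Cdk2 (-0.29) joined the negative ones. The 3 fell to 1 without array 2 of cytokines with BRD0476 at 6 h. The calls of Mcm4, Orc2, Pcna and Pold1 each ended without some single array, with values of -0.28 to -0.29, 0.27 to 0.28, -0.20 to -0.22 and 0.27 to 0.37.

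Within BRD0476-treated cells, cytokines still lowered many of these genes. At 6 h 15 were called lower and 0 higher (1 at an unadjusted p under 0.05), with a median of -0.11, against 10.7% and 10.3% of all genes. At 12 h 27 were lower and 1 higher, Mcm3 by 0.23 ± 0.08 (adjusted p = 0.0469), with a median of -0.26, against 18.5% and 9.19% of all genes. Mcm3 lost that call with centred arrays (0.22), in a fit of the arrays compared, with a replicate block, and without array 2 or 3 with cytokines (0.26 and 0.18) or array 1 or 2 without (0.21 each). Without array 1 of BRD0476 alone at 6 h, 13 were lower and 0 higher at 6 h: Mcm10 (-0.29, adjusted p = 0.0541) and Pcna (-0.17, adjusted p = 0.059) lost the call. The largest falls within BRD0476 were those of Cdkn2c at 6 h (0.78 ± 0.07) and Cdc45 at 12 h (0.94 ± 0.09).

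Whether the cytokine difference depended on BRD0476 was tested as an interaction. At 6 h it was positive for 15 genes and negative for 3, with a median of 0.17, against 18.8% and 14.4% of all genes. The negative count is under the background. Positive values belong to genes that fell less with BRD0476: Cdkn2c (1.20 ± 0.10, adjusted p = 9.85e-09), Ccne2 (0.64 ± 0.12), Ccne1 (0.61 ± 0.10), Cdc45 (0.59 ± 0.12) and Mcm7 (0.51 ± 0.08) led. The negative ones were Ccnd1 (-0.83 ± 0.16), Cdkn1b (-0.56 ± 0.10) and Mcm3 (-0.51 ± 0.12). The count of 15 was 9 in a fit of only the 12 arrays compared and 11 to 14 with single arrays left out. It was 11 without array 1 of BRD0476 alone at 6 h, and the negative count was still 3. Cdk2, E2f1, Gins1 and Rrm1 lost their calls without many single arrays, with values of 0.26 to 0.43, 0.20 to 0.25, 0.23 to 0.29 and 0.20 to 0.23, and with centred arrays.

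At 12 h the interaction was positive for 2 genes, Cdkn2c (0.45 ± 0.10) and Mcm7 (0.27 ± 0.08), and negative for 3, Mcm3 (-0.64 ± 0.12, adjusted p = 0.000621), Ccnd1 (-0.66 ± 0.16, adjusted p = 0.00625) and Rpa2 (-0.28 ± 0.08). Of all genes 8.38% were positive and 6.89% negative at 12 h, so both counts are near or under the background. Mcm7 lost its call without 6 of the 12 arrays in turn (0.24 to 0.27) and with centred arrays (0.23), and Rpa2 lost its call without 6 (-0.24 to -0.27). Rpa2 had fallen further with BRD0476: with cytokines at 12 h it read 8.70, 8.53 and 8.63 in DMSO and 8.31, 8.28 and 8.40 with BRD0476. The interval of most other genes is wide enough to hold a moderate interaction, since the median half-width of the 95% interval was 0.23.

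**Figure D4:**
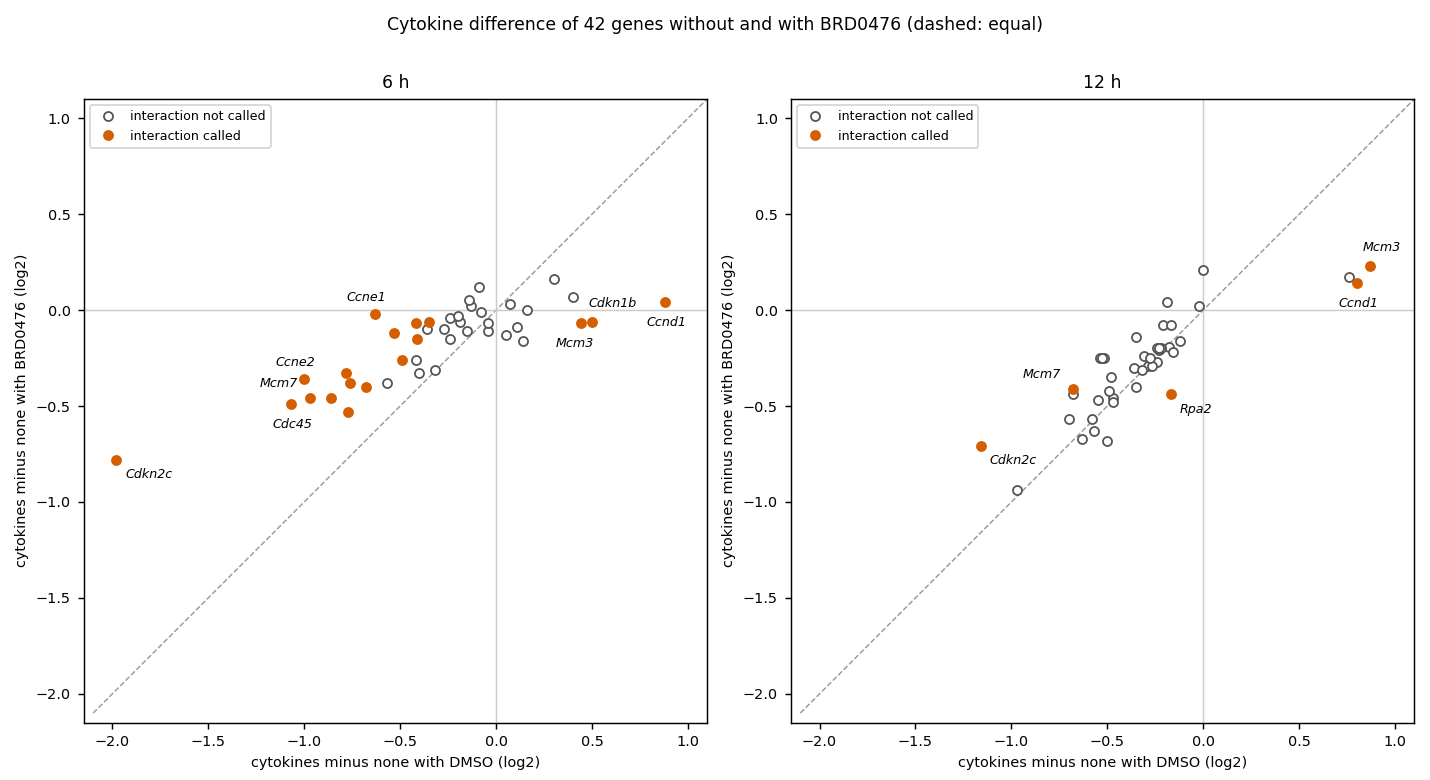
Cytokine difference (log2) of each of the 42 genes with BRD0476 (vertical) against DMSO (horizontal) at 6 and 12 h, with filled points where the interaction was called and the dashed line where both are equal. At 6 h Cdkn2c lies at -1.98 with DMSO and -0.78 with BRD0476, and Ccnd1 at 0.88 and 0.04; at 12 h most points lie near the line.

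Without cytokines, no BRD0476 difference passed the test. At 6 h 0 genes were lower and 0 higher, against 1.85% and 1.68% of all genes, and at an unadjusted p under 0.05 the counts were 3 and 2. At 12 h 0 were lower and 0 higher, against 2.64% and 2.02% of all genes, with 3 and 6 at an unadjusted p under 0.05. Leaving out array 1 of BRD0476 alone at 6 h, the array that stood apart, also gave 0 lower and 0 higher. The largest differences were those of Ccnd3, 0.35 (95% interval 0.13 to 0.57) at 6 h and 0.30 (0.08 to 0.52) at 12 h, and of Pold1, 0.30 (0.12 to 0.48) at 12 h. Ccnd3 at 6 h was called with the intensity trend and robust prior, array weights, quantile normalization or a replicate block, and Pold1 at 12 h in 8 alternative fits. For Cdc45 the interval ran from -0.15 to 0.22 at 6 h, and for Ccne2 from -0.14 to 0.21.

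Other replication genes, 39 of them measured, were mostly lower too: 26 were called lower and 3 higher with cytokines at 6 h (median -0.39), and 24 lower and 0 higher at 12 h (median -0.35), against 27.4% and 24.3% of all genes at 6 h and 29.9% and 16% at 12 h. Pold4, a small subunit of polymerase delta, fell by 1.59 ± 0.09 at 6 h and 1.80 ± 0.09 at 12 h. Pole2, of polymerase epsilon, fell by 1.58 ± 0.09 and 0.65 ± 0.09, and Rpa3, the small RPA subunit, by 1.35 ± 0.07 and 0.44 ± 0.07. Dctpp1, which clears damaged nucleotides from the pool, fell by 0.97 ± 0.13 and 0.55 ± 0.13. Rpa3 read 11.41, 11.47 and 11.52 untreated, 10.07, 10.11 and 10.16 with cytokines and 11.25, 11.35 and 11.31 with cytokines and BRD0476 at 6 h, so that its arrays with BRD0476 lay just below the untreated ones. BRD0476 with cytokines gave 14 of the 39 higher and 5 lower at 6 h, against 24.7% and 19.4% of all genes.

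Mitosis genes had their larger differences at 6 h. Of 30 measured, 29 were called lower and 0 higher at 6 h (median -0.98), and 20 lower and 1 higher at 12 h (median -0.29), where the shares of all genes were 27.4% and 24.3%, and 29.9% and 16%. The change between the times was upward for 27 and downward for 0, against 11.8% and 16.9% of all genes. Bub1b, a spindle checkpoint kinase, fell by 1.64 ± 0.07 and 0.68 ± 0.07, Cdc20, which activates the anaphase-promoting complex, by 1.57 ± 0.09 and 0.51 ± 0.09, and the mitotic kinesin Kif20a by 1.54 ± 0.09 and 0.73 ± 0.09. The proliferation marker Mki67 fell by 0.52 ± 0.08 at 6 h and was at -0.18 ± 0.08 at 12 h (adjusted p = 0.0712). Over the same span the 42 replication and G1/S genes had 8 upward and 7 downward changes. BRD0476 with cytokines gave 24 of the 30 mitosis genes higher and 1 lower at 6 h, against 24.7% and 19.4% of all genes. At 12 h 4 were higher and 3 lower, near the 16.3% and 10.6% of all genes.

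Among 26 other G1/S regulators, 12 were called lower and 5 higher at 6 h, and 9 lower and 6 higher at 12 h. The shares of all genes were 27.4% and 24.3% at 6 h and 29.9% and 16% at 12 h, so the 5 higher at 6 h and the 9 lower at 12 h are near or under the background. Cdkn1a, the CDK inhibitor p21 and a p53 target, read 7.62, 7.61 and 7.63 untreated and 9.44, 9.57 and 8.75 with cytokines at 6 h, and 7.74, 7.62 and 7.74 against 10.32, 10.63 and 9.78 at 12 h. It rose by 1.63 ± 0.21 and 2.54 ± 0.21, well beyond the untreated spread, with cytokine array 3 the lowest of its group both times. With BRD0476 it read 7.79, 7.38 and 7.46 at 6 h and 8.91, 9.29 and 9.71 at 12 h, lower than with cytokines alone by 1.71 ± 0.21 and 0.95 ± 0.21. Myc, a driver of cell growth and S-phase entry, rose by 1.36 ± 0.07 at 6 h and fell by 0.51 ± 0.07 at 12 h. Without cytokines Myc read 8.61, 8.63 and 8.76 in DMSO and 7.95, 7.93 and 8.08 with BRD0476 at 6 h. At 12 h without cytokines these were 8.38, 8.43 and 8.50 against 7.78, 7.62 and 7.77. With cytokines at 6 h Myc read 10.03, 9.98 and 10.08 in DMSO and 7.67, 7.84 and 7.83 with BRD0476. The repressor E2f7 fell by 1.33 ± 0.09 at 6 h and was at -0.20 (adjusted p = 0.0757) at 12 h. Cdkn2d, the inhibitor p19 and a relative of Cdkn2c, fell by 1.28 ± 0.12 and 0.62 ± 0.12. Ccna2, the S-phase cyclin, fell by 0.96 ± 0.10 and 0.43 ± 0.10, and Cdk6 was near background with a difference of -0.05 ± 0.12 at 6 h.

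Genes that fell were found with and without an E2F word. With cytokines at 6 h, 6 of the 14 measured genes with a word were called lower and 1 higher, and of the 21 without one 15 were lower and 2 higher. At 12 h these counts were 10 and 1 with a word and 18 and 0 without. The shares of all genes were 27.4% lower and 24.3% higher at 6 h, and 29.9% and 16% at 12 h. Mcm3 and Ccnd1 were the 2 of the 42 genes that rose at both times. Mcm3 has 2 words in its window, as Mcm7, which fell, has, and Ccnd1 has no window here. Cdc45, Mcm10 and Cdkn2c, among the largest falls, had none of these spellings in their windows, which says nothing on other spellings or other sites. Windows for Orc1, Orc4, Cdc6, Mcm4, Rrm2, Ccnd1, Ccnd2, Ccne2 and E2f1 were not used here.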

How the data were processed

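Per the labels, total RNA of INS-1E cells was labelled with biotin and hybridised to Affymetrix rat arrays, 24 in all. The deposited values are linear intensity per probe set, made with RMA (background correction, normalization between arrays and summary over probes) per the submitters' processing notes. The RMA version and the step back to a linear scale are not given in the sources used here. The values were taken to log2 with no further normalization. Array medians were 5.49 to 5.57.

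The table held 31099 probe sets, 57 of them controls. The platform annotation named 20826 other probe sets with 1 symbol, for 14217 genes. Probe sets with several symbols (436) or none (9831) were not used. For a gene with several probe sets the brightest on average stood for it. Levels were not compared between genes, since probes differ in response.

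The model was limma 3.58.1 under R 4.3.3 (lmFit, contrasts, eBayes; 8 group means, all 24 arrays, 16 residual degrees of freedom) and each of 14 comparisons had its p-values adjusted by the Benjamini-Hochberg method across all 14217 genes. With 3 arrays against 3 an exact test cannot go below a two-sided p of 0.1, so calls rest on the model. The steps were tested on simulated data. The members, role groups, other lists and words were chosen with earlier results of these data known, so lists are described by counts and medians with no test. Array values are given for up to 3 genes of each role group with the largest cytokine change in DMSO, for the 8 largest called interactions and for genes that moved against their group; other lists are shown by up to 4 called genes with the largest change at 6 h and a panel of Cdkn1a, Ccna2, Cdk6, Myc and Mki67. Promoter windows came from a RefSeq table for GRCr8.

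Alternatives were centred arrays, quantile normalization, array weights, an intensity trend with robust prior, a pseudocount of 16, genes below the lower quartile left out, the mean of all probe sets, only the arrays compared, a replicate block, and each array left out in turn. Replicate numbers were taken to pair 2 groups where every same-number correlation of deviations from the group means was over 0.1. This held for the cytokine DMSO groups at 6 and 12 h (0.42, 0.40 and 0.72). A block within those 6 arrays was added, after the data were seen, for the 3 comparisons over time that use both groups. The rule was also met by untreated cells and cytokines with BRD0476 at 6 h (0.11, 0.24 and 0.22). Those groups were not compared with each other, but both enter the 6 h interaction, for which no such block was fitted. The labels give no shared culture or day for a number.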

Additional observations from a re-analysis of the deposited data

Results flagged for a closer look

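The cytokine difference in DMSO differed between 12 h and 6 h by a called interaction term of limma for 15 of the 42 genes, given here as the value at 12 h minus that at 6 h on the log2 scale. The shift was downward for Orc2 (-0.51), Orc4 (-0.64), Cdt1 (-0.49), Pola1 (-0.32), Pold1 (-0.54), Rfc3 (-0.28) and Cdkn1b (-0.68). The value of Orc4 is that of its brighter probe set, and its other probe set differed in direction at 6 h. The shift was upward for Mcm3 (0.43), Mcm7 (0.29), Rfc4 (0.30), Rrm1 (0.27), Tk1 (0.49), Ccne1 (0.35), Ccne2 (0.46) and Cdkn2c (0.81).

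The BRD0476 difference in cells with cytokines differed between the times, by the same kind of term, for 11 genes. It was lower at 12 h for Mcm4 (-0.33), Cdc45 (-0.51), Pcna (-0.21), Rpa2 (-0.30), Tk1 (-0.32), Ccne1 (-0.64), Ccne2 (-0.40) and Cdkn2c (-0.83). It was higher at 12 h for Orc2 (0.33), Pold1 (0.37) and Cdkn1b (0.85). Both sets of values use the cytokine DMSO arrays.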

How the results depend on the processing

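Of 588 results on single genes, 213 were called, and 71 of these lost the call in at least 1 alternative, while 78 others gained one. The 1 result that changed sign was Rfc1 with cytokines at 6 h, 0.02 with the mean of its probe sets. The counts of genes lower or higher with cytokines in DMSO at either time stayed within 1.5 times the values given above in every alternative run. Other counts moved further. With BRD0476 and cytokines at 12 h, genes higher were 4 with the mean of all probe sets and 3 with only the arrays compared. With BRD0476 alone at 6 h, 1 was higher with the trend and robust prior, array weights, quantile normalization or the replicate block. With BRD0476 alone at 12 h, 1 was higher with centred arrays, dim genes left out, the trend and robust prior, the pseudocount, quantile normalization or the replicate block, 2 with only the arrays compared and 5 with array weights, which also gave 2 lower. For cytokines within BRD0476 at 12 h, genes higher were 0 with centred arrays, only the arrays compared or the replicate block, 2 with array weights, and 0 to 1 with single arrays left out. Positive interactions at 6 h were 9 with only the arrays compared, and at 12 h 1 with centred arrays, 4 with array weights and 1 to 2 with single arrays left out. Upward changes of the cytokine difference were 5 with only the arrays compared, and those of the BRD0476 difference 5 with array weights and 1 to 4 with single arrays left out. From 6 to 12 h, untreated cells had 1 gene higher and 18 lower with array weights, 0 lower with only the arrays compared and 1 to 4 lower with single arrays left out. Cells with cytokines had 2 higher with only the arrays compared and 4 to 6 with single arrays left out. The causes of these moves were not tested, except that a fit of fewer arrays has fewer degrees of freedom.

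Replicate numbers did not pair the arrays across all groups: over 84 pairs of the same number in different groups, deviations from the group mean correlated with a median r of -0.04 (-0.48 to 0.72), and over 168 pairs of other numbers with 0.01 (-0.54 to 0.55). Every same-number r was over 0.1 in 2 of 28 pairs of groups. These were the cytokine DMSO groups at 6 and 12 h, and untreated cells and cytokines with BRD0476 at 6 h (0.11, 0.24 and 0.22). A replicate block within the cytokine DMSO arrays alone was chosen after seeing the data. With it 47 of 47 calls over time held and 9 were gained, and the positive changes of the BRD0476 difference were 5. With the replicate block over all arrays 208 of the 213 calls held, 5 were lost and 2 were gained. Genes near background, such as Rb1, have compressed differences on these arrays.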
